A study of Arabidopsis thaliana with 2 samples.

Results

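Pseudogenes of Arabidopsis thaliana that carry RNA in mature pollen were examined as the 924 loci that the deposited tables type as pseudogene, of 33322 nuclear loci listed. Pollen of the ecotype Ler-0 (Landsberg erecta) was set against pollen of Col-0 (Columbia), the ecotype of the reference genome. Each is labelled by its ecotype, with 1 library and no stated mutation or treatment. In both, plants grew in long days, pollen was shaken out of open flowers into buffer and filtered through a mesh, and libraries came from total RNA after rRNA removal with the ScriptSeq-v2 kit. The sources used here give neither plant age nor the number of plants pooled. With 1 library per ecotype no difference below has a replicate check, and the plants, their collection and the library preparation differ along with the ecotype.

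A pseudogene is a copy of a gene that has lost the power to encode the full protein, through stop codons, frameshifts, truncation or the loss of its regulatory sequence. Such copies arise by duplication, by reverse transcription of messenger RNA, or, in plants, by transfer of mitochondrial and chloroplast DNA into the nucleus. Some are still transcribed, and short reads from a pseudogene and a close relative can be hard to assign.

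The sequences of several pseudogenes that differed most between the libraries show what kind of remnant each is. They were read from the TAIR10.1 nuclear genome, taken to have the same bases and positions as TAIR10, on which the tables are. The annotated limits of loci can differ. They were identical in the tables and TAIR10.1 for 3888 of 3895 transposable element genes (99.8%) and 668 of 924 pseudogenes (72.3%). Over all 33322 listed loci they were identical for 10598 (31.8%). All are written 5′ to 3′ on the strand of the locus. AT2G04047 (chr2:1317153-1317386, plus strand) is annotated as a defensin-like gene, a family of small secreted peptides held together by disulfide bridges between cysteines. Its translation matched the coding relative AT2G04045 at 45.5% identity over 66 residues. Capitals mark its 6 cysteine codons that line up with cysteines of that relative, out of 7 cysteines in the aligned stretch.
AT2G04047: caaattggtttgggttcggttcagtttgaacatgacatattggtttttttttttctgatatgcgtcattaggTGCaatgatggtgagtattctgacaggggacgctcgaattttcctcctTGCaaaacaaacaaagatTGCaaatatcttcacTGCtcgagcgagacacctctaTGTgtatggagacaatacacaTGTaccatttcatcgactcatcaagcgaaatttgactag

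AT2G07726 (chr2:3448961-3449179, plus strand) is a nuclear copy of a mitochondrial stretch and is annotated as mitochondrial ribosomal protein S14. Its whole length had 1 exact match in the mitochondrial genome. It begins ATGTCGTAG, with the stop codon TAG in the frame of the ATG, so the matching mitochondrial stretch carries that stop as well. It is shown because it also overlaps a neighbouring gene on the same strand, and capitals mark the 99 bases it shares with that gene, AT2G07725, a ribosomal L5P family locus.
AT2G07726: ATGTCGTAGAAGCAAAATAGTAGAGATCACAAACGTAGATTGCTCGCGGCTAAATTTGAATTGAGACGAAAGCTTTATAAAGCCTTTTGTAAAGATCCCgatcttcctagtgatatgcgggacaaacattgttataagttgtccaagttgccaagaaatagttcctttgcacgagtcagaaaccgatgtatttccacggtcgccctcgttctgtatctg

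The next pairs show an in-frame stop codon, a defect that marks many pseudogenes, beside the coding sequence it is aligned to. AT3G46385 (chr3:17065585-17065647, minus strand), a leucine-rich repeat receptor kinase remnant, is set beside the receptor kinase AT1G27190 (chr1:9447970-9448032, minus strand). The retroelement reverse transcriptase remnant AT1G44150 (chr1:16792751-16792813, plus strand) is set beside AT4G05095 (chr4:2613957-2614019, minus strand). The F-box remnant AT1G30921 (chr1:11007344-11007406, minus strand) is set beside AT1G30920 (chr1:11004527-11004589, minus strand). Capitals mark the stop codon in the pseudogene and the aligned codon in the relative. The windows of 63 bases shared 58, 41 and 50 identical bases, in the order given.
AT3G46385: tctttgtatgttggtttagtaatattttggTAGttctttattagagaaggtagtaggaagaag
AT1G27190: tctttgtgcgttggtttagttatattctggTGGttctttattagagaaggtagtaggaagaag
AT1G44150: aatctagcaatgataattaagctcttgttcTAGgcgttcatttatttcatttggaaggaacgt
AT4G05095: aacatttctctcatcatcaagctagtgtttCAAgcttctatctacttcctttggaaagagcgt
AT1G30921: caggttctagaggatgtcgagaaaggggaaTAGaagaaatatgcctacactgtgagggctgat
AT1G30920: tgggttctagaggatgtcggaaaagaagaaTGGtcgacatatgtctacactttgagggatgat

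The last pairs show stretches in which few bases separate a pseudogene from an expressed coding relative. Each stretch was taken from the longest ungapped block of its alignment, 354 and 84 bases in the order below. The whole loci may differ more. AT2G03291 (chr2:1001106-1001225, minus strand), annotated as a transmembrane protein, differs from AT2G22340 (chr2:9493257-9493376, minus strand) at 6 of 120 bases shown. AT2G35743 (chr2:15027867-15027950, minus strand), of no known function, differs from AT2G35750 (chr2:15029956-15030039, minus strand) at 4 of 84 bases. Capitals mark the differing bases.
AT2G03291: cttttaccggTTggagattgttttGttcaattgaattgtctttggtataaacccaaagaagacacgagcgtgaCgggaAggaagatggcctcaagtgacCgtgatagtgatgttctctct
AT2G22340: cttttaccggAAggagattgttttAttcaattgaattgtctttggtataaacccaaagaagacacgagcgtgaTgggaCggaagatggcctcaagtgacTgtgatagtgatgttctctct
AT2G35743: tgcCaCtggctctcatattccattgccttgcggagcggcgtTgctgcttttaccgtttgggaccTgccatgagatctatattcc
AT2G35750: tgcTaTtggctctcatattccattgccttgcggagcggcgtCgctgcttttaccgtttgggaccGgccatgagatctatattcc

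The libraries held 88952509 (Ler-0) and 76488187 (Col-0) reads over all loci, recovered from the deposited FPKM (reads scaled for locus length and sequencing depth). FPKM 1 in a locus of 1 kb stood for 89.0 reads in Ler-0 against 76.5 in Col-0. The pollen label held: 6 genes of the vegetative cell, which grows the pollen tube, lay at 181 to 12345 FPKM in Ler-0 and 131 to 9535 in Col-0, and 4 sperm genes lay at 2.18 to 138 FPKM in Ler-0 and 1.18 to 58.0 in Col-0. The sperm genes summed to 150 FPKM in Ler-0 against 73.4 in Col-0, but the histone gene MGH3 carried this sum, and without it the others summed to 12.1 FPKM in Ler-0 against 15.4 in Col-0. Of other tissues, 3 leaf genes lay at 1.66 to 33.1 FPKM in Ler-0 and 2.75 to 28.9 in Col-0, while 2 tapetum genes lay at 0.0523 to 0.151 FPKM in Ler-0 and 0.0811 to 0.470 in Col-0. The part of these cell types in any difference below was not tested, and in such bulk RNA fewer cells of a type and less RNA per cell cannot be told apart.

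Most pseudogenes had reads in pollen, but few reached the level used here to call a locus expressed. Of the 924, 144 (15.6%) reached FPKM 1 in either library and are called expressed here, against 28.7% of all listed loci, 31.9% of protein-coding loci and 8.91% of transposable element genes. FPKM 1 was reached by 121 pseudogenes in Ler-0 and by 101 in Col-0, of which 78 reached it in both. Levels of 10 FPKM or more in either library were seen at 33, and 100 FPKM or more at 4. Another 736 had reads but stayed under FPKM 1 in both libraries, and 44 had no read in either. At FPKM 1 or more a pseudogene rested on at least 20 reads in each library, with medians of 214 reads in Ler-0 and 307 in Col-0.

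**Figure D1:**
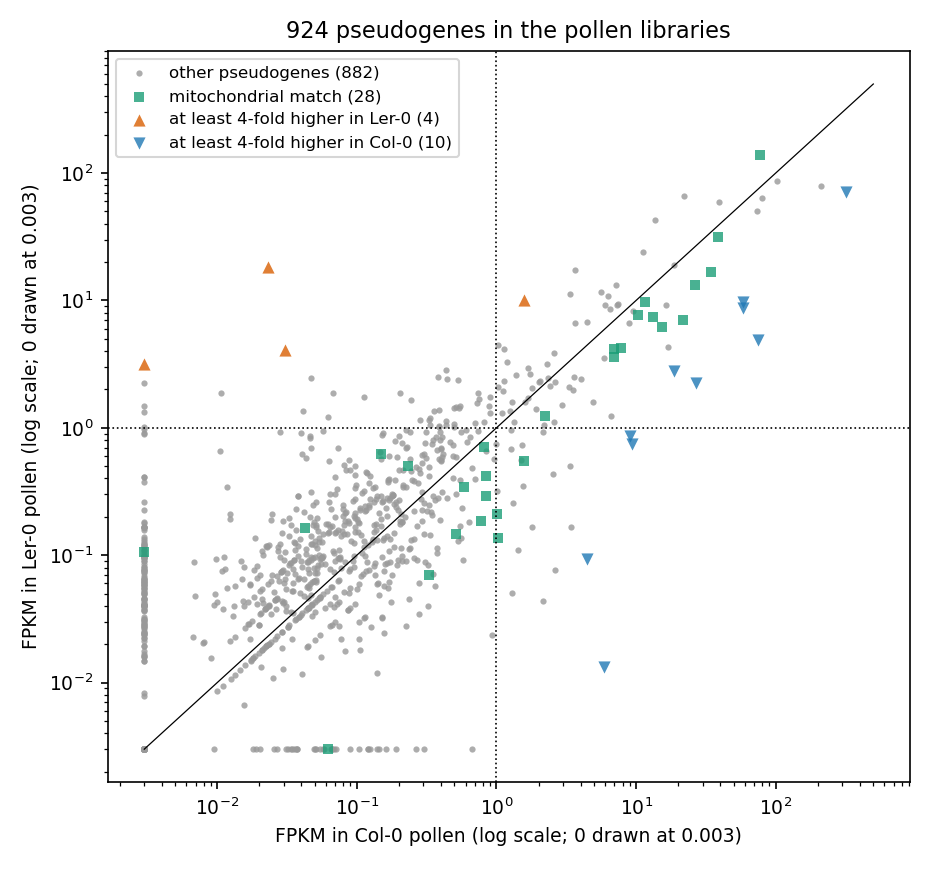
Each point is 1 of the 924 pseudogenes, with FPKM in Col-0 pollen on the x axis and FPKM in Ler-0 pollen on the y axis, both on log scales with 0 drawn at 0.003. Dotted lines mark FPKM 1 and the solid line marks equal values. Triangles are the 4-fold differences, with 4 loci higher in Ler-0 (pointing up) and 10 lower there (pointing down), and squares are the other loci that match the mitochondrial genome, most of which lie below the line.

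Pseudogenes took 0.176% of reads in Ler-0 (156920 reads, 95% exact binomial interval 0.176 to 0.177) and 0.320% in Col-0 (244428 reads, 0.318 to 0.321). These intervals cover counting error only. A single locus, AT1G79245, held 19.3% of the pseudogene reads in Ler-0 and 47.8% in Col-0. Without it the shares were 0.142% in Ler-0 against 0.167% in Col-0. The 10 loci with the most reads held 60.2% of pseudogene reads in Ler-0 against 77.0% in Col-0.

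The ecotypes were compared by the difference in log2(FPKM + 1), Ler-0 minus Col-0, centred on its median of 0.06 over the 6656 loci at FPKM 1 or more in both libraries. This difference is called the log2 ratio, and the added 1 understates it for loci with low FPKM. Of the 144 expressed pseudogenes, 4 were higher in Ler-0 by 4-fold or more (2.78%, against 3.44% of all expressed loci), and 10 were higher in Col-0 by that margin (6.94%, against 2.22%). With a pseudocount of 0.1 in place of 1 the counts were 20 for Ler-0 against 22 for Col-0, and with a filter at FPKM 5 they were 2 for Ler-0 against 9 for Col-0. A further 94 (65.3%) were less than 2-fold apart, against 78.4% of all expressed loci. The median log2 ratio was 0.10 for expressed pseudogenes and 0.06 for all expressed loci, and 76 lay above 0 and 68 below. Without the mitochondrial copies described below the median was 0.28, and with a filter at FPKM 5 it was -0.42. Numbers in brackets below are log2 ratios unless called ratios, which divide FPKM in Ler-0 by FPKM in Col-0 and carry 95% exact binomial intervals that cover counting error only.

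**Figure D2:**
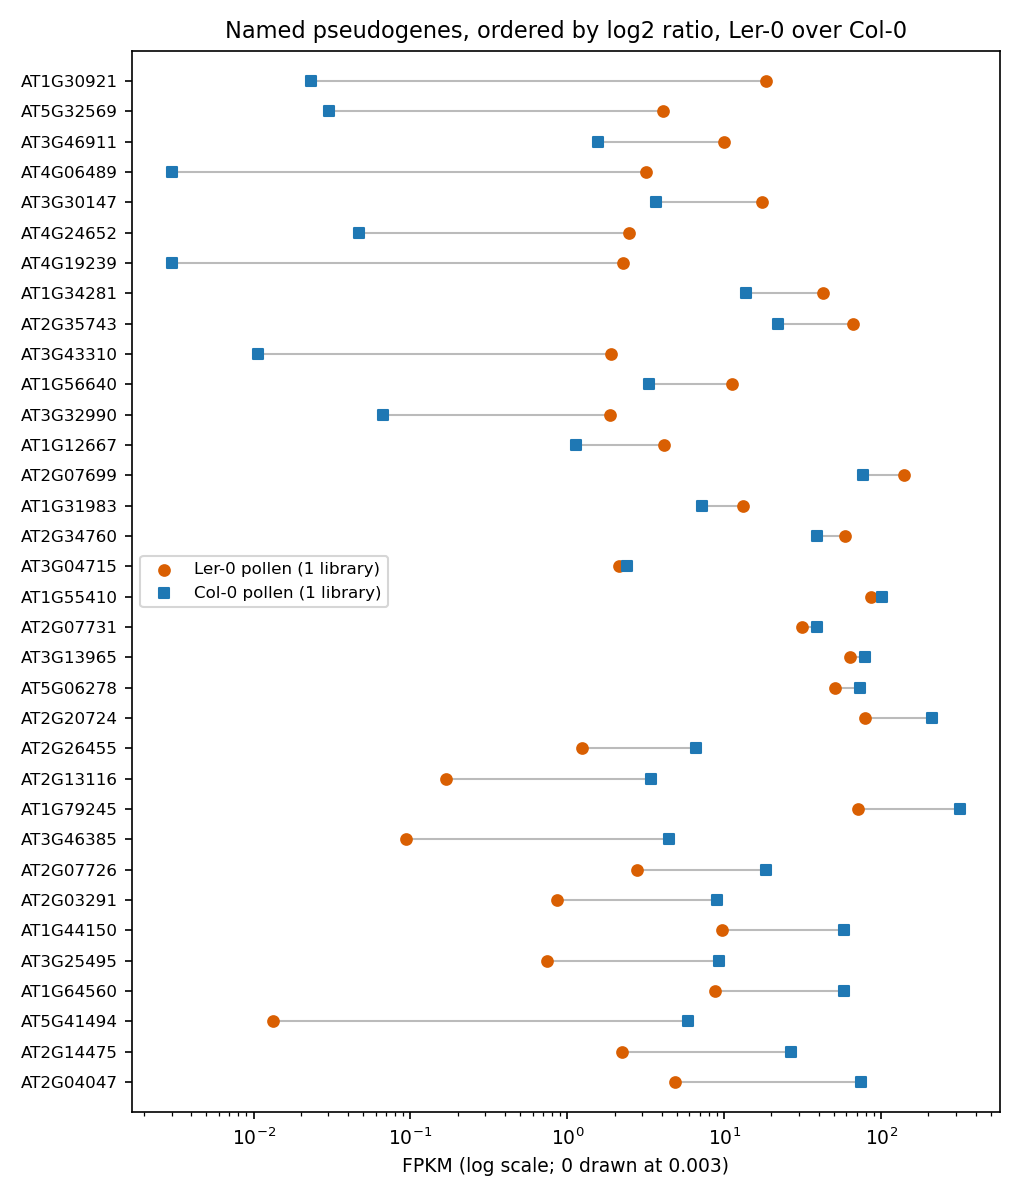
FPKM on a log scale (0 drawn at 0.003) for the 34 named pseudogenes, ordered by log2 ratio with the highest in Ler-0 at the top. Circles are the Ler-0 library and squares the Col-0 library. AT1G30921, at the top, lies at 18.4 FPKM in Ler-0 against 0.0232 in Col-0, and AT2G04047, at the bottom, at 4.87 in Ler-0 against 74.4 in Col-0.

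Among pseudogenes higher in Col-0, the defensin-like AT2G04047 had the lowest log2 ratio. Without the added 1, loci of lower FPKM such as AT5G41494, described below, stood further apart. It had 4.87 FPKM (101 reads) in Ler-0 and 74.4 FPKM (1326 reads) in Col-0, a log2 ratio of -3.74 (ratio 0.0655, 0.0530 to 0.0802). Its coding relative AT2G04045 stayed near silence at 0.209 FPKM in Ler-0 and 0.0728 in Col-0, so the remnant carried far more RNA than the coding gene. AT2G14475 (chr2:6163928-6164963), without an assigned function, had 2.24 FPKM in Ler-0 and 26.7 in Col-0 (-3.16). Its relative AT1G67210, 95.1% identical, had 0.665 FPKM in Ler-0 against 0.960 in Col-0, and with so close a copy its reads are uncertain. It lies 36 bases downstream of another pseudogene, AT2G14490, annotated as an ARF GTPase-activating protein, at 9.26 FPKM in Ler-0 and 16.3 in Col-0. Both members of that pair were higher in Col-0.

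AT1G64560 (chr1:23973729-23974177), a remnant of an rRNA adenine dimethylase, an enzyme that methylates ribosomal RNA, had 8.68 FPKM in Ler-0 and 58.2 in Col-0 (-2.68). It overlaps the oppositely oriented coding locus AT1G64561 by 137 bases, which had 7.34 FPKM in Ler-0 and 29.1 in Col-0. Whether the counting used strand is not given in the sources used here, so the reads of the pair are uncertain. Its coding relative DIM1A had 1.24 FPKM in Ler-0 and 0.581 in Col-0, a difference the other way. The reverse transcriptase remnant AT1G44150 had 9.74 FPKM in Ler-0 and 58.0 in Col-0 (-2.52). AT3G25495 (chr3:9244325-9250768) is annotated after GMI1, a gene induced by DNA damage, and had 0.742 FPKM in Ler-0 and 9.29 in Col-0 (-2.62).

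Other loci had few reads in Ler-0. The F-box remnant AT5G41494 (chr5:16602589-16603438) had 1 read (0.0132 FPKM) in Ler-0 and 380 reads (5.85 FPKM) in Col-0 (ratio 0.00226, 5.71e-05 to 0.0127). F-box proteins pick the targets that ubiquitin ligases mark for degradation. AT3G46385, the receptor kinase remnant with the stop codon shown above, had 9 reads (0.0932 FPKM) in Ler-0 and 367 (4.42 FPKM) in Col-0. Its relative AT1G27190 did not share this direction, at 0.721 FPKM in Ler-0 against 0.211 in Col-0. The F-box remnant AT2G13116 had 0.167 FPKM in Ler-0 against 3.39 in Col-0. Its log2 ratio of -1.97 fell just short of the 4-fold line because of the added 1, and was -3.79 with a pseudocount of 0.1. The RING/U-box remnant AT2G26455, of the ubiquitin ligase kind, was also higher in Col-0, at 1.24 FPKM in Ler-0 against 6.64 in Col-0 (-1.83). It begins 2 bases from SMU2, a splicing gene at 0.993 FPKM in Ler-0 against 1.81 in Col-0.

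The locus with the most reads, AT1G79245 (chr1:29804735-29809514, minus strand), annotated with a winged helix-turn-helix DNA-binding domain, had 71.4 FPKM (30349 reads) in Ler-0 and 319.9 FPKM (116935 reads) in Col-0. Its log2 ratio was -2.21 (ratio 0.223, 0.220 to 0.226), the least extreme of the 10. No coding relative was found for it by the rule below. The nearest locus upstream on its strand is the pollen tube kinase gene AGC1.7, 620 bases away, at 14.0 FPKM in Ler-0 and 35.4 in Col-0. That neighbour was also higher in Col-0, by a smaller ratio and from a lower level. Whether the reads of AT1G79245 begin in it was not tested.

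Among pseudogenes higher in Ler-0, the F-box remnant AT1G30921 had the highest log2 ratio. It had 1844 reads (18.4 FPKM) in Ler-0 and 2 reads (0.0232 FPKM) in Col-0, a log2 ratio of 4.18 (ratio 793, 219 to 6551). Its protein match AT1G30920 had 0.355 FPKM in Ler-0 against 0.174 in Col-0, and its closest relative in DNA sequence, the F-box gene AT1G31090, had 0.0543 FPKM in Ler-0 and 0.0211 in Col-0, so neither coding gene came near its level. It held 3 in-frame stops against AT1G30920, of which the window above shows 1.

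AT5G32569 (chr5:12207553-12209270), of no assigned function, had 625 reads (4.09 FPKM) in Ler-0 and 4 reads (0.0305 FPKM) in Col-0, a log2 ratio of 2.24. Its relative AT4G06688, annotated as myosin heavy chain-like and 75.5% identical, had 4.84 FPKM in Ler-0 and 0.133 in Col-0. AT3G32990 and its relative AT3G43870, both of unknown function and 88.2% identical, had 1.87 and 2.33 FPKM in Ler-0 against 0.0672 and 0.0403 FPKM in Col-0. In both cases the pseudogene and the coding relative were close to silent in Col-0. AT3G43310, annotated as myosin heavy chain-like, had 411 reads in Ler-0 and 2 in Col-0 (ratio 177, 48.6 to 1464), but its relative AT5G27890 was near 0 in both, at 0.0297 FPKM in Ler-0 and 0.0575 in Col-0.

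Of expressed pseudogenes, 5 had no read in Col-0, and 0 had none in Ler-0. Loci without a read were more common in Col-0 in general. They numbered 1236 in Ler-0 against 2360 in Col-0 over all 33322 listed loci, and 82 against 169 over the 924 pseudogenes. AT4G06489 (chr4:3115943-3116611), of no assigned function, had 189 reads (3.18 FPKM) in Ler-0 and 0 in Col-0 (2.00), which is at least 54.2-fold higher in Ler-0 against a floor of 3 reads in the Col-0 library. AT4G19239, annotated as related to beta-galactosidase, had 52 reads in Ler-0 and 0 in Col-0, at least 14.9-fold higher. Its upstream neighbour AT4G19240, 24 bases away, had 2.38 FPKM in Ler-0 and 0.0202 in Col-0, so the pair of loci differed together. The others, named after their values were seen, were AT1G28591, AT1G51802 and AT3G31161.

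AT3G46911 (chr3:17279711-17280176), annotated after cullin4, a scaffold of ubiquitin ligases, had 10.01 FPKM in Ler-0 and 1.57 in Col-0 (2.03). It lies 59 bases downstream of the cullin family gene AT3G46910, which had 2.06 FPKM in Ler-0 and 0.772 in Col-0. Just under the 4-fold line by its log2 ratio, the ribonuclease H-like remnant AT3G30147 had 17.4 FPKM in Ler-0 and 3.65 in Col-0 (1.92). AT4G24652 is annotated as the beta subunit of TFIIE, a general factor of transcription by RNA polymerase II, and had 123 reads in Ler-0 and 2 in Col-0 (ratio 52.9, 14.3 to 442). Its coding relative AT4G20330 was near level, at 34.01 FPKM in Ler-0 against 31.7 in Col-0. AT1G56640, annotated as MYB114, a regulator of anthocyanin pigment, had 11.2 FPKM in Ler-0 against 3.34 in Col-0 (1.43), and its relative MYB90 had 0.880 in Ler-0 against 0.404 in Col-0. AT1G34281, of unknown function, had 42.6 FPKM in Ler-0 against 13.7 in Col-0 (1.50).

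The most abundant pseudogenes included several with smaller differences. AT1G55410, a remnant of the cysteine/histidine-rich C1 domain family, had 85.9 FPKM in Ler-0 and 101.9 in Col-0 (-0.31), while its relative AT1G55390 had 0.0726 FPKM in Ler-0 and 0.0664 in Col-0. AT2G20724, an expressed sequence of no known function, had 78.4 FPKM in Ler-0 against 210.2 in Col-0 (-1.47). The proline-rich AT3G13965 had 63.2 FPKM in Ler-0 and 79.1 in Col-0 (-0.38). These are levels that a typical pseudogene, with a median of 0.0992 FPKM in Ler-0 and 0.0634 in Col-0, did not approach. A pair of abundant loci overlaps an oppositely oriented gene, so their reads are uncertain. AT2G34760, annotated as a tubulin beta-9 chain, had 59.2 FPKM in Ler-0 against 39.3 in Col-0 (0.52) and overlaps FAH1, a fatty acid hydroxylase gene at 265 FPKM in Ler-0 and 206 in Col-0, by 410 bases. AT5G06278, annotated after HVA22-like J, had 50.5 FPKM in Ler-0 against 73.0 in Col-0 (-0.58) and overlaps AT5G06280 by 472 bases.

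Pseudogenes with mitochondrial sequence were mostly lower in Ler-0. This grouping was made after the values were seen. Of the 924, 29 matched the mitochondrial genome over at least 90% of their span, and 27 of these lie within chr2:3244557-3507323, the known insertion of mitochondrial DNA near the centromere of chromosome 2. Identity to the mitochondrial genome in the 27 ran from 90.3% to 100%, with a median of 99.3%. Of the 29, 17 (58.6%) were expressed, all in the insertion, against 127 of the other 895 pseudogenes (14.2%). Of these 17, 16 had a log2 ratio below 0, with a median of -0.82, whereas of the other 127 expressed pseudogenes 52 lay below 0 and 75 above, with a median of 0.28. Over all expressed loci, 4487 of 9562 lay below 0. Of 14 pseudogenes that matched the chloroplast genome over as much of their span, 1 was expressed. Organelle genes were not analysed here, and reads of the insertion cannot be told apart from those of mitochondrial transcripts.

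Copies of genes for respiratory complexes held the highest levels, but not all of them lay above the other copies. The cytochrome c biogenesis copy AT2G07723 had 9.71 FPKM in Ler-0 against 11.6 in Col-0 (-0.30). The intron maturase copy AT2G07747 had 7.66 FPKM in Ler-0 against 10.3 in Col-0 (-0.44). Among the subunits of NADH dehydrogenase, the entry complex of the respiratory chain, the nad5 copy AT2G07711 had 16.7 FPKM in Ler-0 against 34.3 in Col-0. The nad1 copy AT2G07786 had 13.3 FPKM in Ler-0 against 26.3 in Col-0. The nad4 copy AT2G07717 had 7.04 FPKM in Ler-0 and 21.6 in Col-0 (-1.56). Each of these was lower in Ler-0, as were the nad7 copy AT2G07709 at 6.19 FPKM in Ler-0 against 15.4 in Col-0 (-1.25) and the nad2 copy AT2G07733 at 7.45 FPKM in Ler-0 against 13.3 in Col-0. The nad6 copy AT2G07731 differed less, at 31.2 FPKM in Ler-0 against 38.8 in Col-0 (-0.37).

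The S14 copy AT2G07726, shown above, had 54 reads (2.78 FPKM) in Ler-0 and 309 (18.5 FPKM) in Col-0 (-2.43). AT2G07725, which shares the marked bases, had 4.18 FPKM in Ler-0 and 16.3 in Col-0, so the overlapping loci were both lower in Ler-0. The exception was AT2G07699, a copy of the gene for subunit 6 of ATP synthase, with 139 FPKM in Ler-0 against 76.9 in Col-0 (0.79, ratio 1.81, 1.76 to 1.86), the highest pseudogene level in Ler-0. It is 99.8% identical to the coding locus AT2G07741, which had 99.2 FPKM in Ler-0 against 73.3 in Col-0, and reads of the copies are uncertain. Loci of other types in the insertion were not all of the same direction: 33 of 37 expressed protein-coding loci were lower in Ler-0 (median -0.78), and so were 3 of 3 expressed transposable element genes (median -1.30), but 4 of 11 expressed tRNA loci were (median 0.70).

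**Figure D3:**
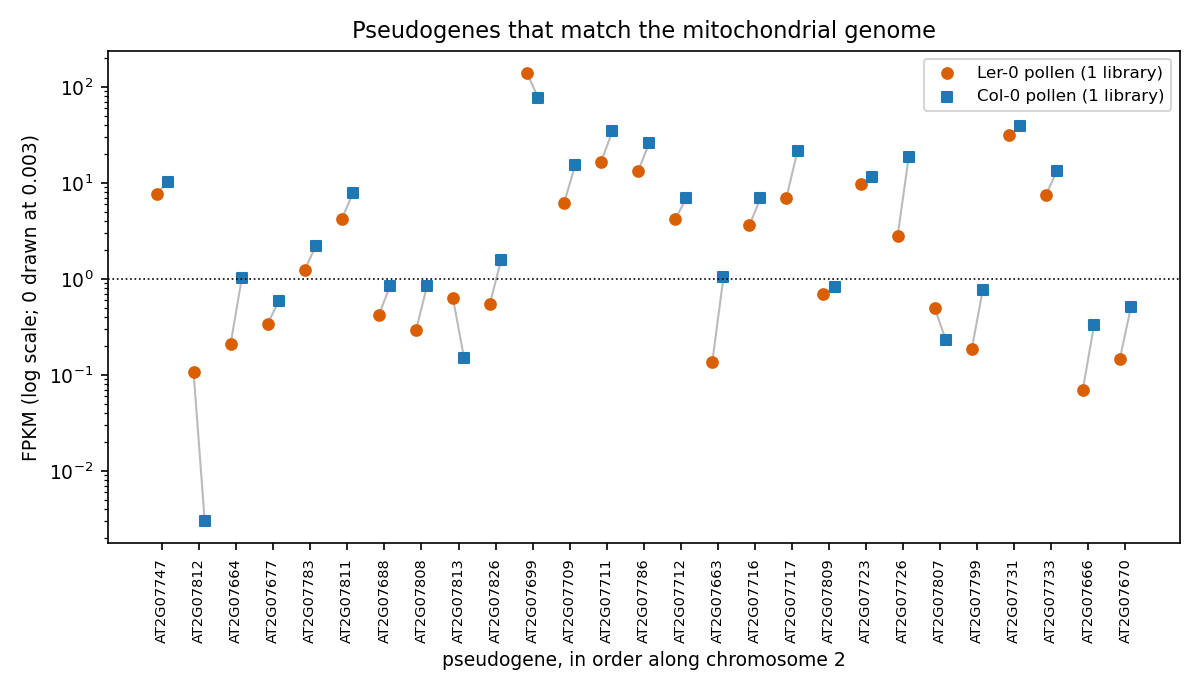
FPKM on a log scale (0 drawn at 0.003) of the 27 pseudogenes in the mitochondrial insertion, in order along chromosome 2, with circles for the Ler-0 library and squares for the Col-0 library. The dotted line marks FPKM 1. Of the 17 expressed loci, AT2G07699 is the one with the higher circle.

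Expressed pseudogenes were usually above their closest coding relative, taken as the best match that covers at least 30% of the pseudogene at 70% identity or more. Of the 144, 98 had such a relative, and the relative stayed under FPKM 1 in both libraries for 64 (65.3%). The pseudogene was above it in both libraries for 62 (63.3%) and below it in both for 18 (18.4%). Since the 98 were taken for their own level, these counts are a description. FPKM also divides by the whole span of a locus, introns included. The median span was 1917 bases for protein-coding loci and 730.5 for pseudogenes, and its part in these counts was not tested. The relative was itself expressed for 34 (34.7%) of the 98, near the 31.9% of all protein-coding loci that were expressed. It was expressed for 137 (22.5%) of the 610 pseudogenes with a relative that were not expressed. By identity to the relative, the share expressed was 14.4% of 298 at 70 to 80% identity, 11.9% of 269 at 80 to 90% and 16.3% of 141 at 90% or more.

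**Figure D4:**
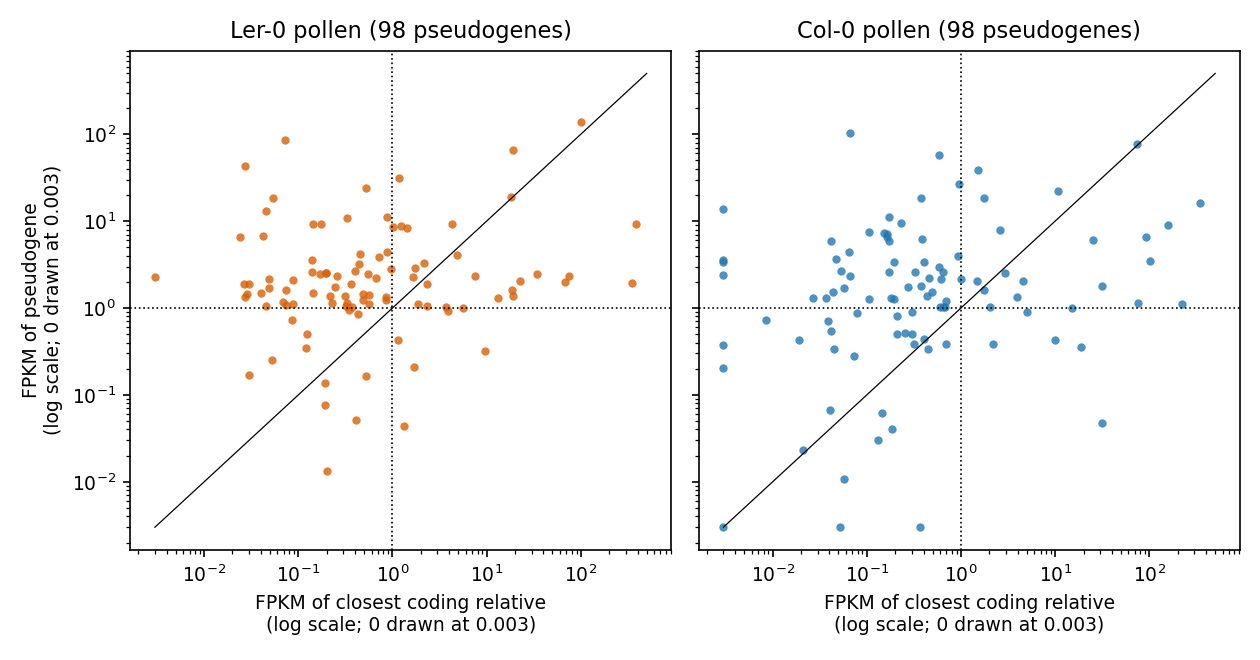
FPKM of the 98 expressed pseudogenes with a coding relative (y axis) against FPKM of that relative (x axis), on log scales with 0 drawn at 0.003, in Ler-0 pollen (left) and Col-0 pollen (right). Dotted lines mark FPKM 1 and the solid line marks equal values. Most points lie above the line, with 62 above it in both libraries.

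The close pairs shown above differed in how far the relative followed. AT2G03291 had 0.855 FPKM (77 reads) in Ler-0 against 9.004 FPKM (697 reads) in Col-0 (-2.49), and AT2G22340, 95.9% identical, had 0.428 FPKM in Ler-0 and 159 in Col-0. Both were lower in Ler-0, and with a copy that close the reads of the pseudogene are uncertain. AT2G35743 had 65.9 FPKM in Ler-0 against 22.1 in Col-0 (1.47), and AT2G35750 had 19.2 in Ler-0 and 10.8 in Col-0, so both were higher in Ler-0 and the pseudogene was the more abundant. The following loci were chosen after their values were seen. The calreticulin remnant AT1G56390 was level, at 19.1 FPKM in Ler-0 and 18.5 in Col-0, although its closest relative in DNA sequence, CRT1a (79.6% identical), a chaperone gene of the endoplasmic reticulum, had 18.1 FPKM in Ler-0 against 1.74 in Col-0. The cotton fiber protein remnant AT1G02681 had 8.53 FPKM in Ler-0 and 6.52 in Col-0, while its relative AT5G61710 had 1.02 in Ler-0 and 91.9 in Col-0. AT1G27671, annotated after the DNA methyltransferase DRM2, had 3.53 FPKM in Ler-0 and 5.90 in Col-0.

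By family, defensin and thionin remnants were expressed most often, at 7 of 21 (33.3%), but this is a count of few loci. Their highest members after AT2G04047 were low, with the thionin-like AT1G12667 at 4.16 FPKM in Ler-0 and 1.13 in Col-0 (1.21), so the pair of leading members differed in opposite directions. F-box remnants, the largest family with 74 members, had 8 expressed (10.8%). They held the locus furthest up in Ler-0, AT1G30921, and AT5G41494, among those furthest up in Col-0. The F-box and FBD remnant AT1G31983 had 13.2 FPKM in Ler-0 and 7.18 in Col-0 (0.73). Of 41 kinase remnants 6 (14.6%) were expressed, the highest by mean being AT3G04715 with 2.13 FPKM in Ler-0 and 2.40 in Col-0 (ratio 0.886, 0.712 to 1.1), whose interval includes equality. Remnants of resistance genes of the NLR kind, receptors of pathogen effectors, had 2 of 12 expressed. Ribosomal protein remnants had 3 of 19, zinc finger remnants 3 of 21, remnants related to the self-incompatibility S1 family 2 of 13, tRNA or rRNA enzyme remnants 3 of 12 and transposase or reverse transcriptase remnants 2 of 36. None (0) was expressed of 17 cytochrome P450, 8 MADS, 11 pectin enzyme, 7 glycosyl or UDP transferase, 8 ubiquitin and 3 heat shock remnants. Families were set by keyword in the annotation, and some loci, such as AT1G24792, count as both F-box and ubiquitin. The expressed RING/U-box remnant AT2G26455 and cullin remnant AT3G46911 fell outside the ubiquitin keyword. The remaining 626 fell in no listed family, and 108 of them (17.3%) were expressed.

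**Figure D5:**
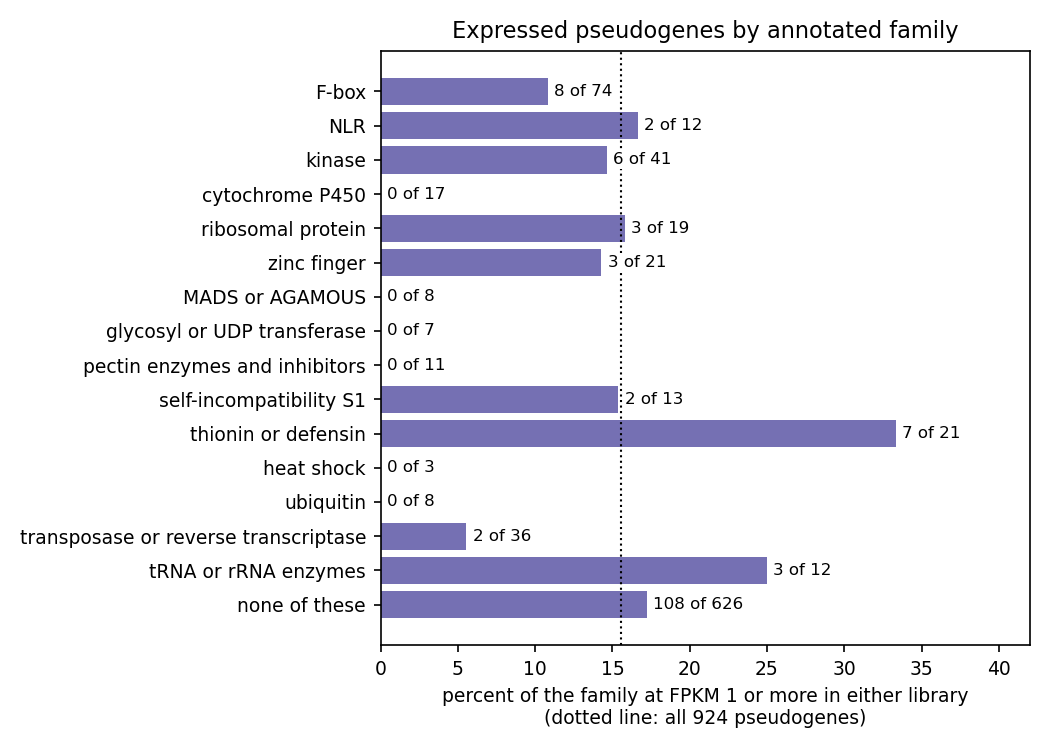
Percent of each annotated family of pseudogenes at FPKM 1 or more in either library, with the number expressed and the family size beside each bar. The dotted line marks all 924 pseudogenes. The defensin and thionin bar is the longest, at 7 of 21.

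The share expressed differed between chromosomes and with neighbouring loci. Expressed pseudogenes made up 19.5% of 241 on chromosome 1, 21.2% of 217 on chromosome 2, 14.4% of 202 on chromosome 3, 9.09% of 121 on chromosome 4 and 7.69% of 143 on chromosome 5. Without the mitochondrial matches the share on chromosome 2 was 15.3% of 189, below that on chromosome 1. Of pseudogenes that overlap a locus on the opposite strand 12 of 46 (26.1%) were expressed, and of those on the same strand 6 of 16 (37.5%), against 126 of 860 (14.7%) with no overlap. A locus upstream on the same strand within 500 bases was present for 38 of the 144 expressed pseudogenes (26.4%) and 110 of the 780 others (14.1%). That upstream locus was itself expressed for 20 of the 38 (52.6%) and 25 of the 110 (22.7%). Among the 20, the pseudogene was above its neighbour in both libraries in 9. Whether reads run on from the neighbour was not tested.

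Stop codons in the frame of the best protein match, with at least 5 of 10 residues identical on each side, were found in 266 pseudogenes. Of these 29 (10.9%) were expressed, against 93 of 572 (16.3%) with a protein match but no such stop. The stops per locus ran from 1 to 5, with a median of 1. Longer loci were expressed more often, from 12.2% of 327 under 500 bases to 22.9% of 109 of 2000 bases or more. The median span was 899 bases for expressed and 693.5 for other pseudogenes, and the median GC content was 38.7% for expressed and 39.2% for other pseudogenes.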

How the data were processed

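RNA of mature pollen was measured in 2 libraries, 1 per ecotype. Subread and the build TAIR10 were used, per the submitters' processing notes, with no version given. The rule for reads with several matches, the use of strand and the counting of reads or pairs are not stated in these sources. The authors deposited FPKM per locus, per the file headers, over the span of the locus. FPKM times span was a whole multiple of 1 step in 100% of values, within 0.01, so reads were recovered. TAIR10 is a Col-0 genome, so Ler-0 reads that differ from it match less well.

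The unit matched the plan, with recovered reads added. No p-value was computed. Exact 95% binomial intervals and the floor of 3 reads (0.0337 FPKM in Ler-0 and 0.0392 in Col-0 for 1 kb) cover counting error alone, as reads copied by PCR are not separate molecules. Relatives and copies came from BLAST 2.17.0 (E-value 1e-05, near-identical at 95% over 50% of the span). The loci searched were the listed ones, cut from the TAIR10.1 genome at their deposited coordinates. Protein matches were sought among the TAIR10.1 proteins of listed coding loci. TAIR10.1 types 921 of the 924 as transcribed pseudogene and 1 as protein-coding, and 1 is absent from it. The members and lists were chosen with earlier results of these data known, and the groups by stop codon, upstream neighbour, identity and mitochondrial match after values were seen.

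The pseudogenes named were the 12 with the highest mean FPKM, the expressed ones with the 12 highest and 12 lowest log2 ratios, and the 2 of highest mean in each family with at least 5 expressed, 34 in all, with their relatives and overlapping loci. Others are marked, apart from near neighbours, protein matches and members of the mitochondrial insertion, which were also named after values were seen. The 4-fold rule was tested on simulated reads with counting error only, and the interval code on fixed numbers. Loci with a mean of FPKM 1 or more were changed 8-fold in Ler-0, with Col-0 kept at that mean. The rule called 99% of those raised but 35% of those lowered, whose levels were lower, so that the added 1 weighed more. Of those lowered from FPKM 10 or more it called 100%. It called 0 of 8383 unchanged loci, but no variation between libraries was simulated, so that count does not cover such variation. Python 3.11.15, pandas 2.3.3, numpy 2.4.6 and scipy 1.17.1 were used.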

Additional observations from a re-analysis of the deposited data

How the results depend on the processing

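No paired analysis was possible because there is 1 library of each ecotype, and no replicate could be left out. The number of expressed pseudogenes, 144, was 529 at FPKM 0.1 and 49 at FPKM 5. The 4 at least 4-fold higher in Ler-0 became 20 with a pseudocount of 0.1, 1 with a pseudocount of 5, 2 with a filter at FPKM 5 and 25 at 2-fold. The 10 at least 4-fold higher in Col-0 became 22, 5, 9 and 25 under these settings, so the split between directions depends on them. It stayed at 4 or 5 and 8 to 11 under the other centrings, the scale of protein-coding loci, and without overlapping, near-identical or mitochondrial loci (the last chosen after seeing the data). The median log2 ratio of 0.10 was -0.024 with no filter and -0.42 with a filter at FPKM 5, 0.20 when centred on loci at FPKM 10 or more, which gives 0.16 for all expressed loci, and 0.28 without mitochondrial matches. Shares of reads were 0.142% in Ler-0 and 0.167% in Col-0 without AT1G79245, 0.153% in Ler-0 against 0.289% in Col-0 without overlapping loci, and 0.139% in Ler-0 against 0.267% in Col-0 without mitochondrial matches. The cause of these shifts was not tested beyond the loci left out. Of the 34 named pseudogenes 0 changed direction, 7 passed the 4-fold line with a pseudocount of 0.1 and 8 fell inside it with a pseudocount of 5. Depth limits loci under FPKM 1.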

Other observations

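Further remnants of low level are given here by value. The loci in this paragraph were chosen after their values were seen. The F-box remnant AT5G38393 had 0.0768 FPKM in Ler-0 against 2.64 in Col-0, whereas AT2G28280 was nearly level, at 1.35 FPKM in Ler-0 against 1.26 in Col-0. The self-incompatibility S1 remnant AT1G66534 had 2.50 FPKM in Ler-0 against 0.380 in Col-0, while AT1G24657 of the same family had 2.50 FPKM in Ler-0 against 3.58 in Col-0. Of the expressed resistance gene remnants, AT1G57840 had 1.19 FPKM in Ler-0 against 0.333 in Col-0, and AT1G50210, whose reads are uncertain because of a near-identical copy, had 1.60 FPKM in Ler-0 against 1.29 in Col-0. AT1G42490, annotated after GDH2, a mitochondrial glutamate dehydrogenase, had 1.93 FPKM in Ler-0 against 1.11 in Col-0, and GDH2 itself had 351 FPKM in Ler-0 and 224 in Col-0.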
